A study of Rattus norvegicus with 12 samples.

Results

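Regulators of G protein signalling (RGS) are described here through 5 genes of 1 subfamily, Rgs2, Rgs3, Rgs4, Rgs5 and Rgs16, measured in cultured rat heart muscle cells after 3 h of steroid treatment. They were taken by gene symbol from the 14217 genes that the arrays' annotation names, with every probe set of each gene described (9 probe sets). The genes were chosen from what the same arrays had shown: Rgs2 stood on opposite sides of vehicle under different ligands. Their differences between ligand and vehicle are therefore given as a description, without a test. The groups were cortivazol plus RU486 (CVZ+RU), corticosterone plus RU486 (COR+RU), aldosterone plus RU486 (ALD+RU), RU486 alone (RU), cortivazol (CVZ), corticosterone (COR), aldosterone (ALD) and ethanol vehicle. The 4 groups with RU486 (10 µM, given before the ligand) had 1 array each, all in the second of 2 experiments. The 4 groups without it had 2 arrays each, 1 per experiment, which makes 12 Affymetrix arrays in all. All cells came from the ventricles of 1-day-old Wistar rats, had been separated from cardiac fibroblasts by differences in adhesion, and had stood for 24 h in OPTI-MEM before treatment. CVZ is a synthetic glucocorticoid, COR the main natural glucocorticoid of rodents, ALD the main mineralocorticoid, and RU486 an antagonist of the glucocorticoid receptor. No label gives a ligand dose, and values of different ligands are set side by side without a claim of equal dose.

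RGS proteins speed the hydrolysis of GTP by the alpha subunits of heterotrimeric G proteins and so shorten signals that begin at G protein-coupled receptors. Rgs2, Rgs3, Rgs4, Rgs5 and Rgs16 belong to the R4 subfamily, whose proteins carry little beyond the RGS domain (Rgs3 also has longer forms). In the heart, Gq-coupled receptors for angiotensin, endothelin and catecholamines drive hypertrophic growth, and RGS2 is known as a selective brake on Gq.

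The sequences before the annotated starts of Rgs2 and Rgs3 are shown. The probe sets of highest mean signal of these genes stood on opposite sides of vehicle under CVZ. They are the 250 bases upstream in the RefSeq table for build GRCr8, chr13:58352667-58352916 on the minus strand for Rgs2 and chr5:81093801-81094050 on the plus strand for Rgs3, which has several annotated transcripts. Capitals mark matches of the motifs named after them.
Rgs2: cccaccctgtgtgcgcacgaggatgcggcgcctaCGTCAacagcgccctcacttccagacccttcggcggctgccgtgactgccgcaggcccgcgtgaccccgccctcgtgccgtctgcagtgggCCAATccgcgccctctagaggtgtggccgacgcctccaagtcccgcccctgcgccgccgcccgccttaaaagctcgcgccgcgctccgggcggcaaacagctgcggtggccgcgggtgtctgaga
Rgs3: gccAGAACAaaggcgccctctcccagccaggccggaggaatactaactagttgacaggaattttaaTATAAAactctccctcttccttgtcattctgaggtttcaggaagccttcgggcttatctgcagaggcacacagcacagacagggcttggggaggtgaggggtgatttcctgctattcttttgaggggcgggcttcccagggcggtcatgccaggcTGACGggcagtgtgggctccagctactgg

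The Rgs2 stretch is rich in G and C (72.4%), against 55.6% for Rgs3 and a median of 51.2% over 33469 promoters of the table. All motifs were searched on both strands of the same window. The full glucocorticoid response element, AGAACA and TGTTCT with 3 bases between them, was in none of the 5 promoters and in 0.012% of all. Its single arm AGAACA was in that of Rgs3 and in 17.5% of all. The inverted repeat of negative response elements (CTCC and GGAGA with 0 to 2 bases between them) was in none of the 5 and in 1.29% of all. The cyclic AMP response element TGACGTCA was in none of the 5 and in 1.59% of all. Its shorter core TGACG, which lies within that element, was in the promoters of Rgs2, Rgs3 and Rgs4 and in 18.2% of all. The CCAAT box was in those of Rgs2, Rgs4 and Rgs16 and in 34.0% of all, and TATAAA in those of Rgs3 and Rgs4 and in 12.9% of all. Rgs2, Rgs4, Rgs5 and Rgs16 lay on chromosome 13, where Rgs4 and Rgs5 were neighbours with 0 annotated genes between them.

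Rgs2, the brake on Gq, was higher than vehicle under CVZ and lower under COR and ALD in both experiments. It has 2 probe sets on the array, and the lead probe set of each gene is the one with the highest mean signal (for Rgs2 1387074_at, the second being 1368144_at). Signals are on the authors' linear scale, on which the median of each array is 1. In the second experiment the lead probe set had a signal of 19.3 under CVZ, 10.0 under COR and 8.28 under ALD, against 14.8 in vehicle. In the first experiment it had 40.1 under CVZ, 18.0 under COR and 17.8 under ALD, against 30.2 in vehicle. The order was the same in both, with CVZ above vehicle and vehicle above COR and ALD, while the ranges of the groups overlapped across experiments because all 4 signals were lower in the second.

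The second Rgs2 probe set gave the same sides of vehicle. It read 9.72 under CVZ, 4.31 under COR and 4.68 under ALD, against 7.89 in vehicle, in the second experiment. In the first it read 17.1, 8.51 and 7.60 under CVZ, COR and ALD, against 12.3 in vehicle. COR and ALD did not keep 1 order between the experiments in this probe set. After removal of each experiment's mean the 2 probe sets correlated at r = 0.93 over the 12 arrays, which is a description, since they read the same RNA on the same arrays.

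**Figure D1:**
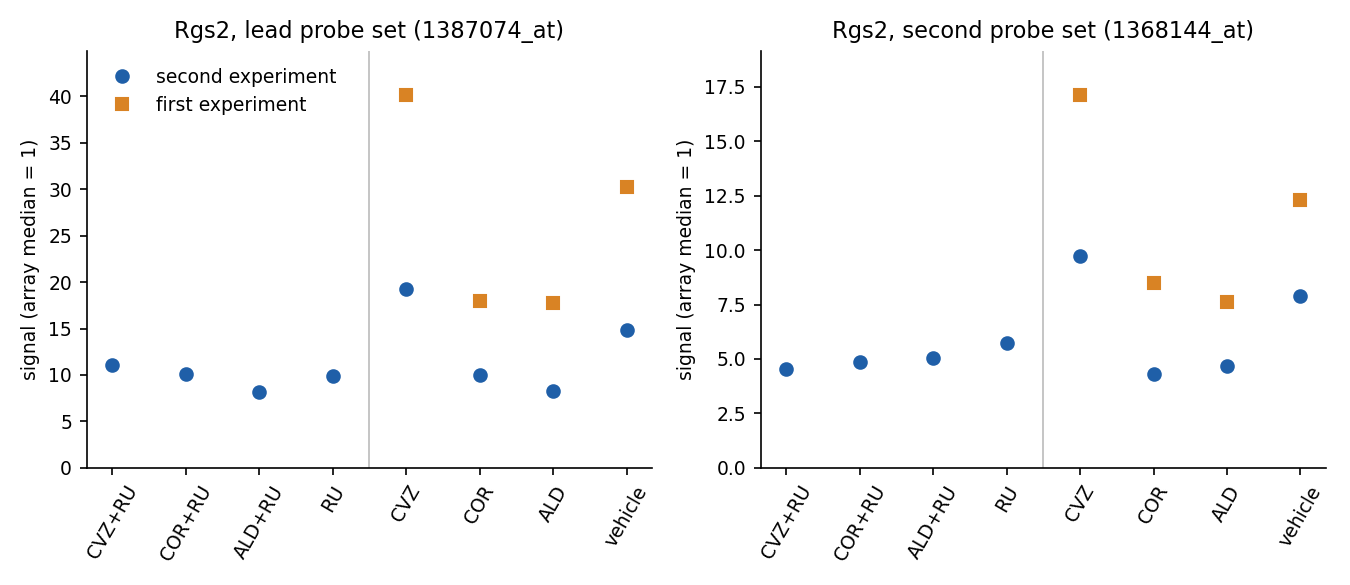
Signal of both Rgs2 probe sets (y axis, linear, array median = 1) in each of the 12 arrays, by group (x axis, RU marks RU486). Each point is 1 array; circles are the second and squares the first experiment. In the lead probe set CVZ stands at 19.3 and 40.1, against 14.8 and 30.2 in vehicle, and the 4 arrays with RU486 lie between 8.18 and 11.1.

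On the log2 scale, after addition of a pseudocount of 0.0696, the lead probe set lay above vehicle by 0.38 and 0.41 under CVZ (second and first experiment). It lay at −0.55 and −0.74 under COR and at −0.83 and −0.76 under ALD. The fit across all arrays, with the experiment as a block, gave log2 0.40 ± 0.11 (SE, n = 2) for CVZ, −0.65 ± 0.11 for COR and −0.80 ± 0.11 for ALD, or 1.32-fold, 0.639-fold and 0.576-fold. For the second probe set these were 0.38 ± 0.13, −0.70 ± 0.13 and −0.72 ± 0.13. Without the COR array of the second experiment the COR value of the lead probe set was −0.76, and without that of the first it was −0.54. The sign pattern of Rgs2, above vehicle under CVZ and below it under COR and ALD in both experiments, was shared by 144 of 18625 tested probe sets (0.773%). These 3 differences share their vehicle arrays, and the pattern is the one Rgs2 was chosen for.

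Set against each other, the ligands gave Rgs2 signals that were higher under CVZ than under COR by log2 1.04 ± 0.11 and than under ALD by 1.19 ± 0.11 (lead probe set, SE, n = 2). Within the experiments the first of these was 0.94 and 1.15, and the second 1.21 and 1.17, in the second and the first experiment. COR and ALD differed by 0.15 (95% interval −0.08 to 0.38), which does not show that they act alike. These differences use the arrays on which Rgs2 was chosen and were not tested. Like ALD and COR, CVZ is a steroid, with a phenylpyrazole group fused to its A ring that the natural hormones lack.

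Rgs3, a second GTPase accelerator for Gq and Gi, stood below vehicle under CVZ in its lead probe set, on the side opposite to Rgs2. Its lead probe set (1367957_at) had a signal of 2.20 under CVZ, 3.26 under COR and 3.98 under ALD, against 3.73 in vehicle, in the second experiment. In the first it had 2.93, 4.12 and 5.02 under CVZ, COR and ALD, against 4.99 in vehicle. Each CVZ signal was lower than the vehicle signal of its own experiment, while ALD was 1.07 and 1.01 times vehicle (second and first experiment). In the fit this was log2 −0.75 ± 0.16 for CVZ (0.595-fold), −0.23 ± 0.16 for COR and 0.05 ± 0.16 for ALD. The CVZ value was −0.74 in the second and −0.75 in the first experiment. A signal below vehicle in both experiments under CVZ was found in 29.2% of tested probe sets. The other 2 probe sets of Rgs3 (1374528_at and 1376803_at) ranged from 0.109 to 0.519 and from 0.0431 to 0.449 over the 12 arrays. Both lay below the level needed for testing, which was 0.63 for the geometric mean over arrays of signal and pseudocount together. Under CVZ 1374528_at had 0.326 and 0.294, against 0.475 and 0.335 in vehicle (second and first experiment). By contrast 1376803_at had 0.312 and 0.0853, against 0.109 and 0.396 in vehicle, and so changed sides of vehicle between the experiments.

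**Figure D2:**
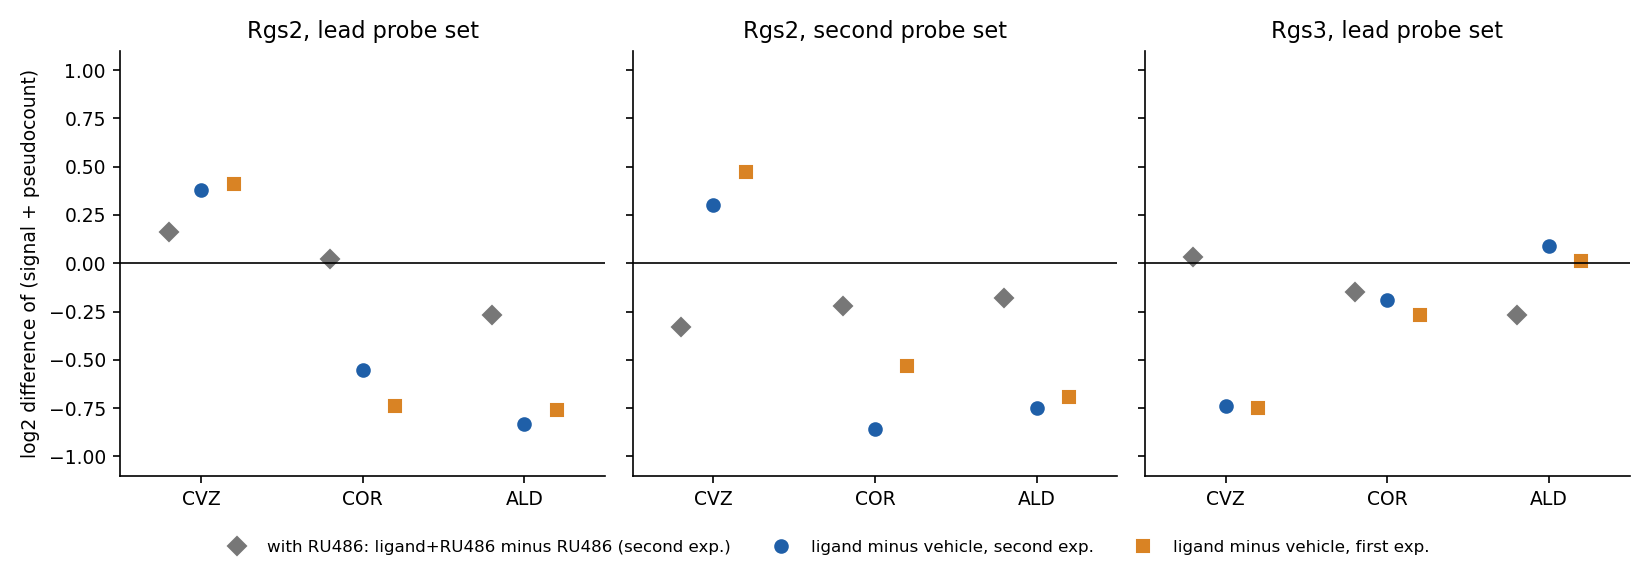
Log2 differences of signal plus pseudocount (y axis) for CVZ, COR and ALD (x axis) in both Rgs2 probe sets and the lead probe set of Rgs3. Diamonds are ligand plus RU486 minus RU486 alone (second experiment); circles and squares are ligand minus vehicle in the second and first experiment, each point from 1 pair of arrays. Under CVZ the lead Rgs2 probe set stands at 0.38 and 0.41 and Rgs3 at −0.74 and −0.75; with RU486 these are 0.16 and 0.03.

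Rgs5, a marker gene of pericytes and vascular smooth muscle, showed no side of vehicle shared by all ligands. Its only probe set (1369957_at) had a signal of 0.897 under CVZ, 0.895 under COR and 0.647 under ALD, against 0.664 in vehicle, in the second experiment. In the first these were 2.03, 1.84 and 1.44 under CVZ, COR and ALD, against 1.81 in vehicle. CVZ and COR stood above vehicle in both experiments and ALD below it, by differences smaller than the gap between the experiments. The fit gave log2 0.28 ± 0.34 for CVZ, 0.21 ± 0.34 for COR and −0.17 ± 0.34 for ALD, each within its error.

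Rgs4, a brake on Gi and Gq that sits beside Rgs5 on the chromosome, was read by 2 weak probe sets, neither of which reached the level for testing. The lead one (1368505_at) had a signal of 0.241 under CVZ, 0.812 under COR and 0.398 under ALD, against 0.613 in vehicle, in the second experiment. In the first these were 0.744, 0.329 and 1.26 under CVZ, COR and ALD, against 0.925 in vehicle. COR and ALD thus changed sides of vehicle between the experiments, and CVZ was below it in both.

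The second Rgs4 probe set (1368506_at) had 0.393 under CVZ, 0.216 under COR and 0.264 under ALD, against 0.782 in vehicle, in the second experiment. In the first it had 0.450, 0.729 and 0.770 under CVZ, COR and ALD, against 0.797 in vehicle. Here all 3 ligands lay below vehicle in both experiments. For CVZ alone this was so in 29.2% of tested probe sets. The probe sets differ for COR and ALD, so that only the lower CVZ signal is common to both.

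Rgs16, which acts on Gi and Gq and is known as an induced gene in many cells, was at the low end of the arrays. Its probe set (1373777_at) ranged from 0.0711 to 0.549 with a median of 0.279, below the level for testing. Under CVZ it had 0.518 and 0.0711, against 0.0840 and 0.374 in vehicle (second and first experiment). The side of vehicle changed between the experiments under CVZ, COR and ALD alike.

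**Figure D3:**
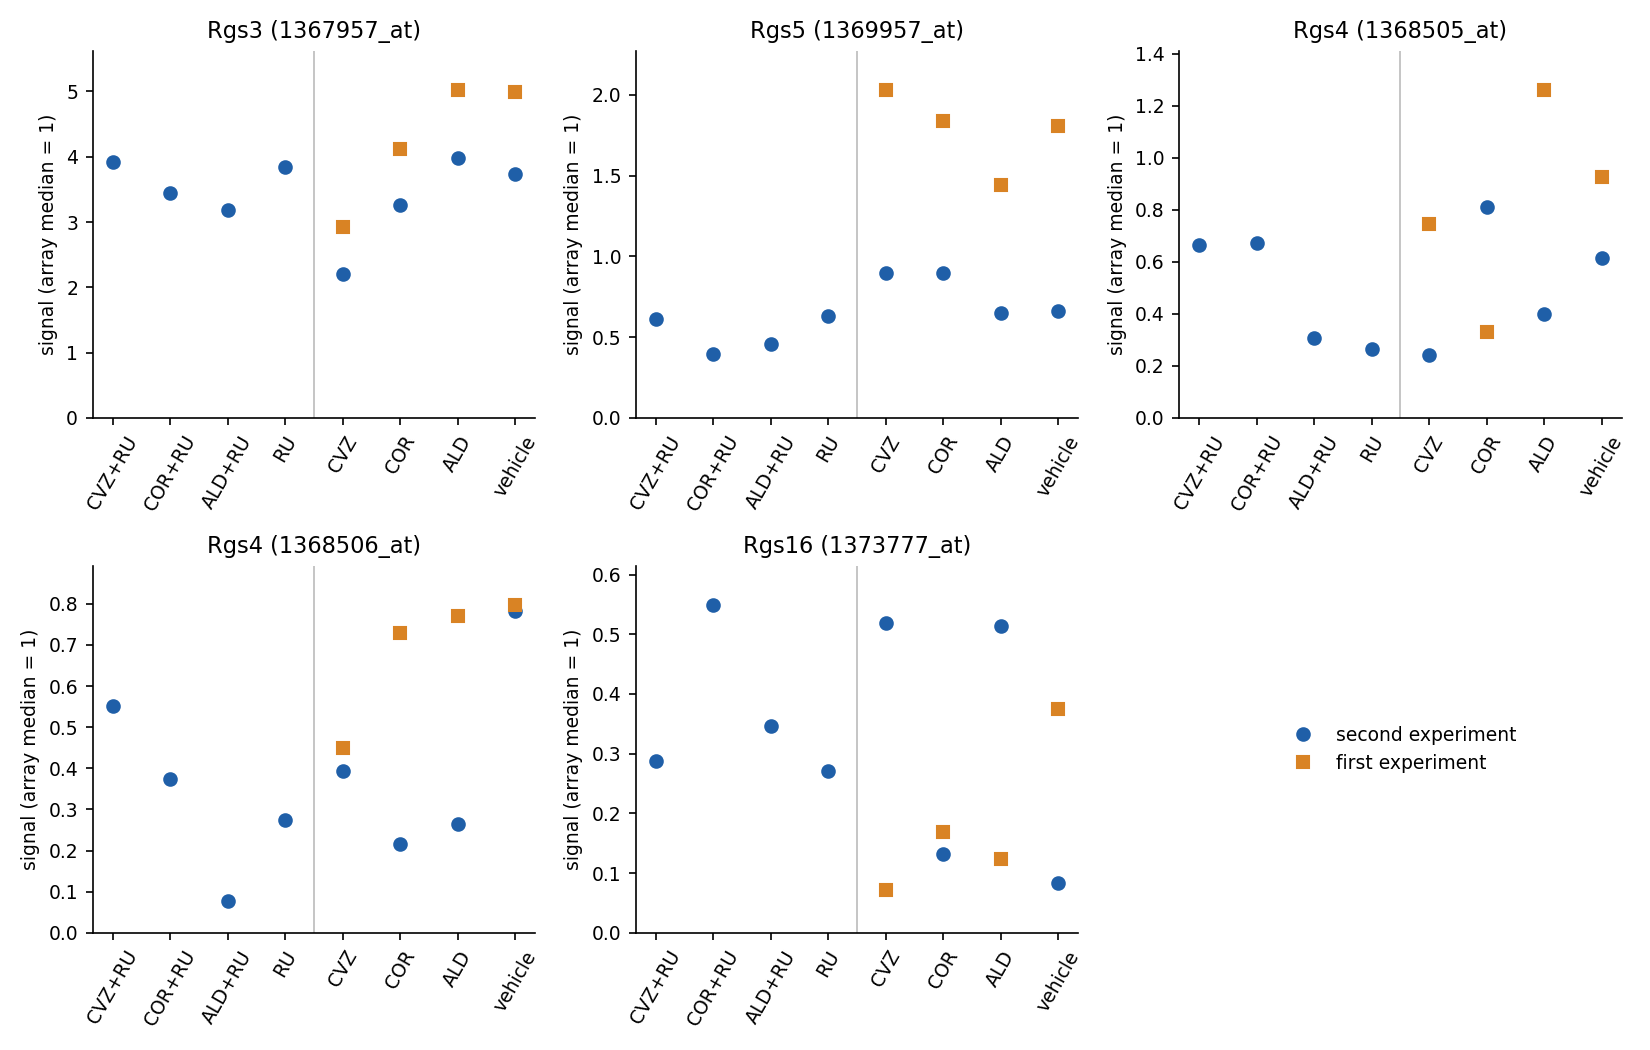
Signal (y axis, linear, array median = 1) of the lead Rgs3 probe set and of the Rgs5, Rgs4 and Rgs16 probe sets. Arrays are shown by group (x axis, RU marks RU486). Each point is 1 array; circles are the second and squares the first experiment. For Rgs3 the CVZ arrays are lowest, at 2.20 and 2.93, while for Rgs4 and Rgs16 points of 1 group lie far apart.

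With RU486 the spread of Rgs2 between ligands was narrower. The lead probe set had signals of 11.1 in CVZ+RU, 10.1 in COR+RU, 8.18 in ALD+RU and 9.91 in RU, against 14.8 in vehicle of the same experiment. The second probe set had 4.55, 4.88, 5.03 and 5.71 in CVZ+RU, COR+RU, ALD+RU and RU, against 7.89 in vehicle. All 4 arrays with RU486 lay below that vehicle array in both probe sets, as they did for 20.8% of tested probe sets, and near the COR and ALD arrays without RU486. Under CVZ the RU486 array stood at 11.1, against 19.3 without RU486, a difference of log2 −0.80, and at 4.55 against 9.72 in the second probe set (−1.09). Under COR and ALD the same differences of the lead probe set were 0.01 and −0.02. In the fit the mean of the 3 ligands with RU486 lay at log2 −0.27 ± 0.09 from that without it. These differences share the ligand arrays with the choice of Rgs2 and were not tested. For the mean of the 3 ligands, 6 of 11 cardiomyocyte markers were called lower with RU486 than without it (limma), where 2.99% of all probe sets were. Among them were Myl2 (−0.29) and Myh6 (−0.24). The median of the 11 markers was log2 −0.20, against 0.01 over all probe sets. Their summed signal was 2073 in CVZ+RU, 2086 in COR+RU and 2115 in ALD+RU. In the same experiment it was 2558 under CVZ, 2348 under COR and 2331 under ALD. RU486 alone had a sum of 2318, against 2301 in vehicle. For the mean of the 3 ligands, 2 of 10 smooth muscle and pericyte markers were called lower, Tagln (−0.57) and Cspg4 (−0.60). Of 6 endothelial markers 1 was called lower, Kdr (−1.08). The medians of these 2 lists were log2 −0.29 and −0.27. Of 10 fibroblast and 7 macrophage markers 0 were called, with medians of −0.06 and 0.17. The part of these markers in the Rgs2 difference was not tested.

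RU486 alone did not change Rgs2 at the threshold, a Benjamini-Hochberg adjusted p below 0.05 over all 18625 probe sets. In limma's fit the lead probe set lay at log2 −0.58 ± 0.14 from vehicle (95% interval −0.88 to −0.29, adjusted p = 0.18, n = 1 against 2). The second probe set lay at −0.39 ± 0.17 (−0.75 to −0.03, adjusted p = 0.70). Rgs3 lay at 0.02 ± 0.20 (−0.41 to 0.46, with a sign that turned under both other scalings of the arrays, to −0.04 and −0.03) and Rgs5 at −0.17 ± 0.43 (−1.09 to 0.75). Of the 4 member probe sets tested 0 were called, where 0.129% of all tested probe sets were (24 of 18625), so that few changes could be called here in any gene. The comparison shares its vehicle arrays with the choice of members, which were also named with the RU486 arrays in view. The lone RU486 array was taken to vary like the other groups.

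On top of RU486 the ligands gave no called difference in the 4 member probe sets tested, the genes having been named with the RU486 arrays in view. Over all probe sets 0.00537% (1) were called for CVZ, 0% for COR and 0.00537% (1) for ALD. For the mean of the 3 ligands the lead Rgs2 probe set lay at log2 −0.03 ± 0.12 from RU486 alone (95% interval −0.30 to 0.23, limma adjusted p = 1.0) and the second at −0.24 ± 0.15 (−0.57 to 0.09). For CVZ alone the lead probe set lay at 0.16 (−0.17 to 0.48) and the second at −0.33 (−0.73 to 0.08), on different sides of 0. The lead Rgs3 probe set, which stood below vehicle under CVZ, had a signal of 3.92 in CVZ+RU, against 3.85 in RU. This was a difference of 0.03 (95% interval −0.45 to 0.50). Rgs3 had 3.45 in COR+RU and 3.19 in ALD+RU. Rgs5 had 0.613 in CVZ+RU, 0.395 in COR+RU and 0.459 in ALD+RU, against 0.633 in RU, and its mean difference was −0.35 ± 0.39. Over all probe sets 0 were called for the mean of the ligands (0%) in limma's fit, 0 without the mean-variance trend, and 462 had an unadjusted p below 0.05.

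The weak members were read with RU486 as well. The lead Rgs4 probe set had signals of 0.666 in CVZ+RU, 0.671 in COR+RU and 0.308 in ALD+RU, against 0.266 in RU. The second Rgs4 probe set had 0.552, 0.374 and 0.0769 in CVZ+RU, COR+RU and ALD+RU, against 0.274 in RU. The 2 probe sets thus stood on different sides of RU in ALD+RU. Rgs16 had 0.287 in CVZ+RU, 0.549 in COR+RU and 0.346 in ALD+RU, against 0.271 in RU. When the filter on low values was dropped, the mean of the ligands with RU486 lay at log2 0.82 ± 0.74 from RU486 alone for the lead Rgs4 probe set. It lay at 0 ± 0.69 for the second Rgs4 probe set and at 0.40 ± 0.95 for Rgs16. Errors of this size leave differences of over 2-fold undetectable in these genes.

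Rgs2 and Rgs5 were lower in the second experiment than in the first. Fitted over the 4 conditions run in both, the lead Rgs2 probe set lay at log2 −1.0 ± 0.08 (0.499-fold, limma adjusted p = 1e-07) and the second at −0.78 ± 0.09 (adjusted p = 1.2e-05). Rgs5 lay at −1.13 ± 0.24 (0.456-fold, adjusted p = 0.0015), with 0.647 to 0.897 in the 4 arrays without RU486 of the second experiment, against 1.44 to 2.03 in the first. Rgs3 lay at −0.37 ± 0.11 (adjusted p = 0.016), a call lost under quantile normalization and trimmed-mean scaling (−0.24 and −0.17) and without the first vehicle, the first CVZ or the second CVZ array (−0.36 each). All 4 member probe sets tested were called lower, where 28.2% of all probe sets were lower, 10.7% higher and 38.9% called in either direction. The median of all tested probe sets moved by −0.10, and under trimmed-mean scaling by 0.10.

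Markers of other cells moved with this difference. All 10 fibroblast markers tested were called lower in the second experiment, with a median of log2 −1.33, and their summed signal was 195.9 to 205.0 in its arrays without RU486, against 368.9 to 451.7 in the first. None of the 10 was at 0. Among them Postn, a matrix protein of activated fibroblasts, lay at −1.75 and Col1a1, type I collagen, at −0.68. Of 10 smooth muscle and pericyte markers 2 were lower, Tagln (−1.30) and Pdgfrb (−0.83), 2 were higher, Abcc9 (0.23) and Notch3 (0.83), and the median was 0.05. The 11 cardiomyocyte markers summed to 2301 to 2558 in the second experiment without RU486, against 2437 to 2650 in the first. Of the 11, 4 were called lower, among them Nppa (−0.50), and 1 higher, Myh7 (0.32), with a median of −0.09. Of 6 endothelial markers tested 2 were lower, Tek (−1.45) and Esam (−0.87), with a median of −0.43. Of 7 macrophage markers tested 1 was lower, Cd68 (−0.50), with a median of 0.03. The part of these cells in the levels of Rgs2 and Rgs5 was not tested, and in bulk RNA fewer cells of a type and less RNA per cell cannot be told apart. The ligand differences above were taken within each experiment, where the fibroblast sum was 205.0 under CVZ, 200.8 under COR and 199.5 under ALD, against 195.9 in vehicle, in the second. In the first it was 447.7 under CVZ, 419.8 under COR and 368.9 under ALD, against 451.7 in vehicle. The summed signal of 7 endothelial markers was 23.78 under CVZ, 21.7 under COR and 17.08 under ALD, against 11.37 in vehicle, in the second experiment. In the first it was 28.75, 33.59 and 25.1 under CVZ, COR and ALD, against 18.33 in vehicle. Kdr, a receptor for vascular endothelial growth factor, was the only 1 of the 6 tested that was called, higher under all 3 ligands (1.83, 2.00 and 1.41). Most of the rise in the sum was that of Kdr. Its signal was 12.5, 13 and 8.86 under CVZ, COR and ALD, against 2.45 in vehicle, in the second experiment. In the first it was 12.6, 15.3 and 9.86, against 4.93 in vehicle. Of 10 smooth muscle and pericyte markers tested only Cspg4 was called, higher under CVZ (0.82) and COR (0.71). Of 10 fibroblast markers tested only Tcf21 was called, higher under CVZ (0.95). The medians of these 2 lists under CVZ were log2 0.06 and 0.01. Over all probe sets 4.77% were called higher under CVZ and 2.44% under COR. The cardiomyocyte sum was 2558 under CVZ, 2348 under COR and 2331 under ALD, against 2301 in vehicle, in the second experiment. In the first it was 2650, 2437 and 2477 under CVZ, COR and ALD, against 2555 in vehicle. Of 11 cardiomyocyte markers only Myh7 was called under a ligand, higher under CVZ (0.35). The part of these markers in the ligand differences of the members was not tested.

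**Figure D4:**
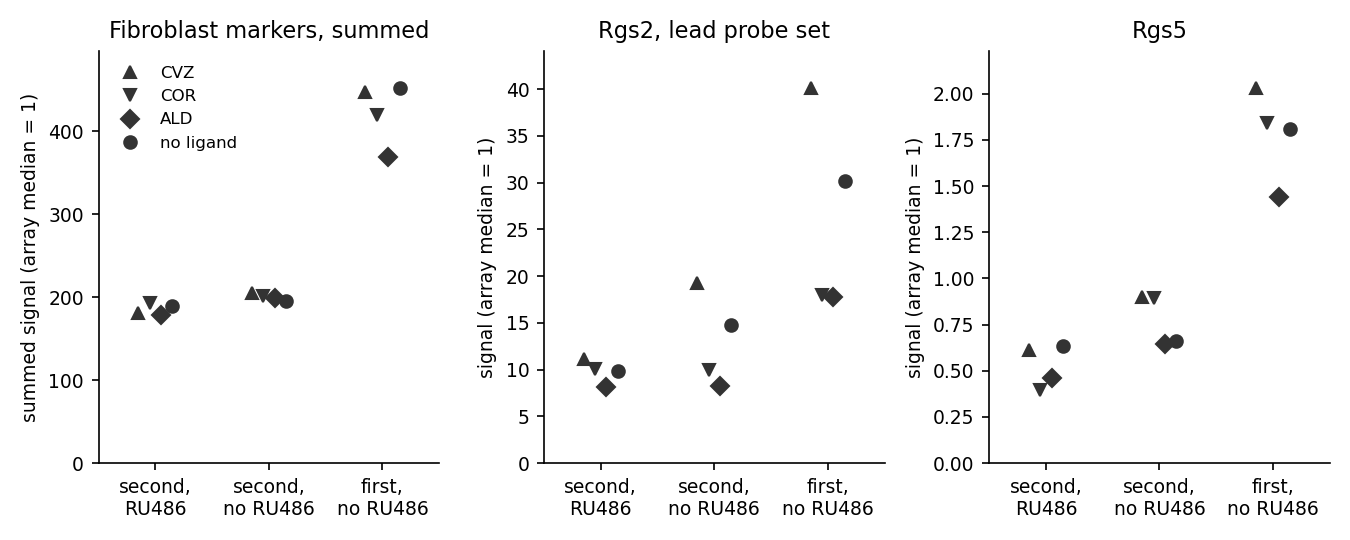
Summed signal of 10 fibroblast markers, and signal of the lead Rgs2 probe set and of Rgs5 (y axes, linear, array median = 1), in arrays of the second experiment with and without RU486 and of the first experiment (x axis). Each point is 1 array, with its shape for the ligand. The fibroblast sum is 195.9 to 205.0 in the second experiment without RU486, against 368.9 to 451.7 in the first, and Rgs5 is 0.647 to 0.897, against 1.44 to 2.03.

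The other RGS genes and proteins with an RGS domain showed no called response. Of 28 such genes and partners on the array 19 were tested, and 0 were called under CVZ, COR, ALD or RU486 (limma), where 7.96%, 3.39%, 0.950% and 0.129% of all probe sets were. Their median was log2 0.01 under CVZ, −0.01 under COR and 0.07 under ALD, against 0.01, 0.01 and 0.02 over all tested probe sets. The remaining R4 genes on the array, Rgs1, Rgs8 and Rgs18, lay below the level for testing, with mean signals of 0.144, 0.419 and 0.217. Rgs10 and Rgs12 of the R12 group, Rgs19 of the RZ group and Rgs6 and Rgs9 of the R7 group were tested. So were Gnb5, the beta subunit that R7 proteins bind, and the receptor kinases Grk2, Grk5 and Grk6. Between the experiments 3 of the 19 were higher in the second and 5 lower, among them Grk6 (−1.13) and Rgs10 (−0.95), shares near the 10.7% and 28.2% of all probe sets.

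Among the subunits of G proteins and their effectors, calls were few, as they were over all probe sets (7.96% under CVZ, 3.39% under COR and 0.950% under ALD). Gna12 rose by log2 0.44 ± 0.12 under CVZ (limma adjusted p = 0.037), the only call among 8 alpha subunits under any ligand. Gnas and Gnai2 were tested and not called, nor were Gnaq and Gna11, named here as the known targets of Rgs2. Of 11 beta and gamma subunits 0 were called under any ligand. Among 17 effectors Adcy6, an adenylyl cyclase of heart muscle, rose by log2 1.23 ± 0.10 under CVZ, 1.16 ± 0.10 under COR and 0.87 ± 0.10 under ALD (adjusted p = 5.6e-07, 2.9e-06 and 0.00016), and it was the only one called under a ligand. Plcb4, a phospholipase driven by Gq, was not.

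Receptors upstream of these proteins changed in both directions. Of 13 tested under CVZ 2 rose and 5 fell, with a median of log2 −0.22, against 4.77% up, 3.19% down and a median of 0.01 over all probe sets. Adra1b and Adra1d, Gq-coupled adrenergic receptors, fell by 1.07 ± 0.11 and 0.99 ± 0.21 (limma adjusted p = 1e-05 and 0.0056). Adrb1, the main beta receptor of cardiomyocytes, fell by 1.13 ± 0.28 (adjusted p = 0.019), and S1pr2, a sphingosine phosphate receptor, fell by 0.69 ± 0.18. Ptgfr, the prostaglandin F receptor, fell by 1.68 ± 0.14 under CVZ and by 1.26 ± 0.14 under COR, where 2 of the 13 rose and 2 fell (2.44% and 0.956% of all probe sets). Under ALD 1 of the 13 rose (0.870% of all). Lpar1, a lysophosphatidic acid receptor, rose under all 3 ligands, by 1.69, 1.03 and 0.55 under CVZ, COR and ALD. F2r, the thrombin receptor, rose by 0.38 ± 0.11 under CVZ. Agtr1a, the angiotensin receptor, rose by 1.23 ± 0.25 under COR.

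The genes whose profiles were most like those of the members were found by Pearson correlation with 10079 other named genes over the 12 arrays, after removal of each experiment's mean. For Rgs2 the highest were Lonp1 (r = 0.91), Ddx46 (0.89), Ssh2 (0.88), Capn2 (0.88) and Jak1 (0.87). The lowest were Pgpep1 (−0.91), Rogdi (−0.90), Bcl2l12 (−0.89), Ncor1 (−0.87) and Tmem160 (−0.87). For Rgs3 they were H2ac25 (0.96), Tbc1d10c (0.96) and Lin9 (0.95). For Rgs5 they were Acta2, smooth muscle actin (0.93), Cpxm1 (0.91) and Cdk8 (0.89). With 12 arrays that share ligands and scaling, the highest of so many correlations is a description only. None of the other members was among the named genes of any list.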

How the data were processed

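The authors deposited MAS5 intensity, per the submitters' processing notes, on a linear scale; the software version is not given in the sources used here. Tested on the file, each array had a median of 1. Arrays have no read depth, and their number limits the precision. Of 31099 probe sets 57 controls were set aside. Before log2 was taken, 0.0696 (10th percentile) was added as a pseudocount, and 18625 probe sets whose mean exceeded the 40th percentile were tested. Of the 9 member probe sets 4 passed, for 3 of the 5 genes. Symbols came from the platform annotation, updated by gene identifier: 20826 probe sets had 1 symbol, 436 several and 9780 none. limma 3.58.1 in R 4.3.3 (lmFit, eBayes with a mean-variance trend) was fitted to 8 groups with the experiment as a block, with Benjamini-Hochberg adjustment over all probe sets tested. There were 3 residual degrees of freedom and 15.2 in total after moderation. The labels' experiment numbers pair the arrays, and first-experiment deviations from group means correlated between groups at 0.512 to 0.567. Nothing says whether the experiments were separate cultures, so p-values measure the spread between these arrays, which may be technical. Members, gene lists and tests were chosen with earlier results of these data known. Genes other than members were named from the lists where called, or among up to 4 others of highest mean signal, and by likeness of profile. The fit was tested on simulated data. Alternatives were other pseudocounts, filters and scalings, no block, no trend, the second probe set and leaving out arrays.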

Additional observations from a re-analysis of the deposited data

Results flagged for a closer look

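Each of the 3 genes tested was paired with each of the 3 ligands (lead probe sets, log2 scale). For 5 of these pairs, the difference between ligand plus RU486 and RU486 alone had the opposite sign to ligand minus vehicle in both experiments. How often this occurs over all probe sets was not counted. The difference between backgrounds was not tested, and each value with RU486 rests on 1 pair of arrays. In all 5 the 95% interval of the value with RU486 took in both signs, so that a reversal was not shown. It was −0.30 to 0.35 for Rgs2 under COR and −0.45 to 0.50 for Rgs3 under CVZ. For Rgs2 under COR the value with RU486 was 0.02, against −0.55 and −0.74 without it (second and first experiment). The second Rgs2 probe set did not show this: its value with RU486 was −0.22, against −0.86 and −0.53 without it. Under CVZ the second probe set, not counted among the 5, had opposite signs. It was −0.33 with RU486 (95% interval −0.73 to 0.08), against 0.30 and 0.47 without it. For Rgs3 under CVZ the value with RU486 was 0.03, against −0.74 and −0.75, and under ALD −0.27, against 0.09 and 0.01. For Rgs5 it was −0.04 under CVZ, against 0.40 and 0.16, and −0.60 under COR, against 0.40 and 0.02.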

How the results depend on the processing

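The lead Rgs2 probe set kept its sign under all alternatives run for CVZ, COR, ALD, RU486 and the second experiment. With no replicate block its values for CVZ, COR and ALD were unchanged, but their SE rose from 0.11 to 0.53. For COR the lead Rgs2 probe set ranged from −0.76 to −0.54 as arrays were left out in turn. Under RU486 it was −1.08 with no replicate block and −0.57 in the second experiment alone, and was called in no setting (adjusted p 0.087 to 1). The mean of the ligands on top of RU486 for Rgs2 was 0.00 under quantile normalization and −0.13 to 0.09 as arrays were left out. Rgs3 under RU486 was −0.04 under quantile normalization, −0.03 with trimmed-mean scaling, −0.16 with no replicate block and −0.01 to 0.05 as arrays were left out. The cause was not tested. Calls over all probe sets depended on the model. With no replicate block they numbered 215 for CVZ, 41 for COR, 13 for ALD and 0 for RU486, and with no mean-variance trend 646, 117, 15 and 0, against 1483, 632, 177 and 24. Leaving out arrays gave 341 to 692 for COR, 117 to 186 for ALD, 11 to 42 for RU486 and 0 to 3 for the ligands on top of RU486. Without the filter RU486 had 13, and under quantile normalization the ligands on top of it had 2. Single arrays with RU486 and weak signals of Rgs4 and Rgs16 limit what can be detected.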
